A study of Mus musculus with 8 samples.

Results

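The small leucine-rich proteoglycans described here are 9 secreted matrix proteins, decorin (Dcn), biglycan (Bgn), asporin (Aspn), fibromodulin (Fmod), lumican (Lum), PRELP (Prelp), osteomodulin (Omd), osteoglycin (Ogn) and podocan (Podn). They were taken from the expression table by gene symbol, and all 9 were found once each among 37979 listed genes. Their RNA was measured in pericytes and smooth muscle cells (SMCs) sorted from mouse skeletal muscle. All animals were Ai14+/−;SM22α-Cre+ mice of both sexes, 3 to 4 months old, in which Cre driven by the SM22α promoter removes a stop signal and so leaves the red protein tdTomato on for the life of the cell. Pericytes were sorted as PDGFRβ+tdTomato− cells and SMCs as PDGFRβ+tdTomato+ cells, after CD31+, CD45+ and DAPI-high cells had been gated out. A mural cell that turned on SM22α at any time therefore counted as an SMC. There were 4 pericyte and 4 SMC libraries, each pooled from several sorts, so a p-value here measures the spread between such pools. The labels give the same batch entry for all 8 libraries, and say nothing of the sorts within each pool.

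Small leucine-rich proteoglycans share a protein core of leucine-rich repeats that curves around and binds collagen. Most carry chondroitin, dermatan or keratan sulfate chains on that core, whereas asporin and PRELP usually carry none. In tendon, skin, muscle fascia and the adventitia of vessels they set the width and spacing of collagen fibrils, and they hold growth factors such as TGF-β in the matrix. In connective tissue they are made chiefly by fibroblasts and tendon cells, and in the vessel wall also by SMCs. They fall into classes by sequence, with Dcn, Bgn and Aspn in class I, Fmod, Lum, Prelp and Omd in class II, Ogn in class III and Podn in class V.

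Most of these genes lie in clusters. On NCBI Build 37, the build of the deposited values, Dcn (chr10:96942245-96980777, 8 exons) and Lum (chr10:97028135-97035337, 3 exons) sit on the plus strand in a cluster of 203 kb that ends with Kera and Epyc. Aspn (chr13:49639812-49662926, 8 exons), Omd (chr13:49678135-49687978, 3 exons) and Ogn (chr13:49703440-49719869, 7 exons) follow Ecm2 within 120 kb of the plus strand. Prelp (chr1:135806881-135817991, minus strand, 3 exons) and Fmod (chr1:135933831-135944854, plus strand, 3 exons) share a stretch of 151 kb with Optc. Bgn (chrX:70728941-70741272, plus strand, 8 exons) and Podn (chr4:107687396-107704942, minus strand, 12 exons) stand alone. Aspn, Omd and Ogn lie inside Cenpp, a centromere protein gene on the opposite strand, and Prelp overlaps the transcript Gm15851. The sources used here do not say whether reads were counted by strand, and without strand the reads of such partners cannot be told apart. Cenpp itself was listed at 2.43 to 10.7 FPKM in pericytes and at 1.51 to 2.95 FPKM in SMCs, lower in each library than Aspn or Ogn but above Omd in pericyte replicates 1, 2 and 4.

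**Figure D1:**
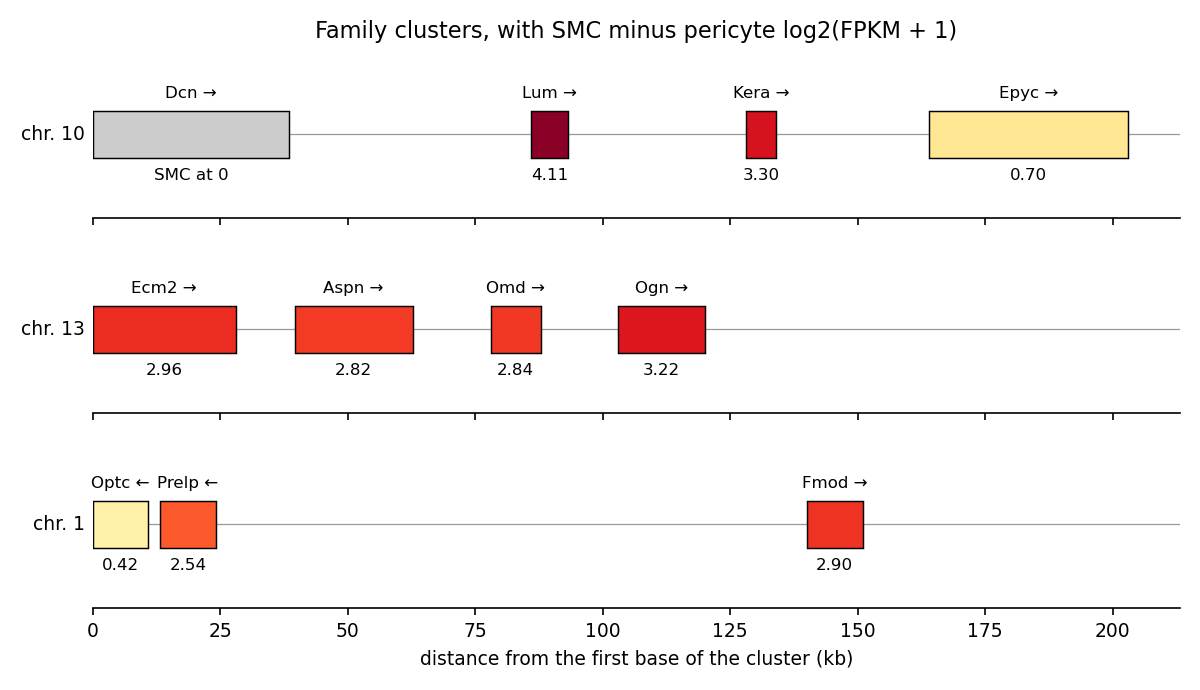
Maps of the clusters on chromosomes 10, 13 and 1, with distance from the first base of each cluster in kb on the x axis, boxes for genes, arrows for the strand and, under each box, the SMC minus pericyte difference in log2(FPKM + 1), darker for larger. Next to Dcn, listed at 0 in SMCs, Lum had the largest difference drawn, 4.11, while Epyc and Optc at the cluster edges had 0.70 and 0.42.

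Because 8 of these genes were higher in the same cells, the DNA just before their start sites is shown for 4 members, chosen because they differ in base composition and in the motifs they hold. RefSeq promoters (from GRCm38.p6) were at hand for 7 of the 9 members in 8 windows, Podn having 2, and each was placed on NCBI Build 37 by an exact match. Dcn and Lum had no entry. The 250 bases before the RefSeq start are printed 5′ to 3′ on the strand of the gene, all plus, and capitals mark matches on either strand to the core promoter motif TATAAA, the CCAAT box, the AP-1 motif TGANTCA, the Sp1-type motif GGGCGG or a CArG box. They come from chr1:135933581-135933830 for Fmod, chrX:70728690-70728939 for Bgn, chr13:49639562-49639811 for Aspn and chr13:49703134-49703383 for Ogn.
Fmod: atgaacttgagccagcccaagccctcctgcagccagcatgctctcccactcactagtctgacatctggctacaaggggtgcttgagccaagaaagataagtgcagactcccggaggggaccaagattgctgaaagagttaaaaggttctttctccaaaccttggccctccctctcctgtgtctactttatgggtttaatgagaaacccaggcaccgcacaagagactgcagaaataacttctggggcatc
Bgn: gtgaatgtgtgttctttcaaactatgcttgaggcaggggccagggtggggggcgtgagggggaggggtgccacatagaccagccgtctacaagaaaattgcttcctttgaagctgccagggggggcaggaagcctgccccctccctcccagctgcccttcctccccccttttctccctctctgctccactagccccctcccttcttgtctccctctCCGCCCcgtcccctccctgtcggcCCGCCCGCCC
Aspn: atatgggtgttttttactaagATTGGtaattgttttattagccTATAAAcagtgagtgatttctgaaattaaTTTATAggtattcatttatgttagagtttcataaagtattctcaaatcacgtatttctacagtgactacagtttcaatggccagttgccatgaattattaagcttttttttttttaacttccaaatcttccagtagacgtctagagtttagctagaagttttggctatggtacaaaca
Ogn: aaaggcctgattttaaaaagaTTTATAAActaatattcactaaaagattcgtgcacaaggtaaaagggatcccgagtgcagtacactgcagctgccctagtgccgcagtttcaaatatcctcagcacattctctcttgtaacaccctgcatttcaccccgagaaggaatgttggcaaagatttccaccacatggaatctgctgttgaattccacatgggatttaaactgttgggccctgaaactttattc

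The printed stretches were chosen for their differences, so the contrasts among them are descriptions only. The GC content was 64.4% for Bgn, 51.2% for Fmod, 42.0% for Ogn and 30.0% for Aspn, around a median of 52.4% over 32851 windows of the same length. Of the member windows not printed, a Podn window had the highest GC content, 78.0%. TATAAA stood in the windows of Aspn and Ogn, where a pair of matches on opposite strands overlap in Ogn, and in 12.4% of all windows. CCAAT stood in Aspn and Prelp and in 33.8% of all windows, and GGGCGG stood in Bgn and Podn and in 32.7% of all windows. The CArG box, which serum response factor binds in contractile genes, and the AP-1 motif were in no member window and in 1.47% and 6.75% of all windows. CANNTG, the E-box, which is not marked in capitals, stood in 6 of 8 member windows and in 66.2% of all. A match is a description of letters, and no match says only that these letters are not in the window.

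The values were FPKM, which are scaled to transcript length and to mapped reads, so levels may be compared between genes. Between libraries the comparison is approximate, because their summed FPKM differed. How many reads stand behind a value is not known. Summed over all genes, a library held 656405 to 782014 FPKM except pericyte replicate 2, which held 1190435, and 12713 to 13194 genes reached 1 FPKM. Log2 values correlated at 0.948 to 0.986 within a group and at 0.847 to 0.896 between groups. The cell labels were checked against marker lists. No mural cell marker was at 0 in a library, but the summed FPKM of 7 of them was 37 to 97.0 in pericytes and 75.9 to 328 in SMCs, and that of 7 contractile genes was 587 to 1872 and 1733 to 5642. Despite the CD45 gate, 6 T cell markers summed to 1473 to 2374 FPKM in the libraries labelled pericyte against 19.0 to 33.6 in SMCs, and 6 B cell markers to 825 to 2037 against 17.8 to 38.8.

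Decorin was listed in a pattern unlike that of the other proteoglycans. Bgn, Lum, Fmod, Ogn, Prelp, Aspn, Podn and Omd were all higher in SMCs, by 6.53 to 16.5 times in mean FPKM, whereas Dcn was abundant in pericytes and listed at 0 in every SMC library, a value that need not mean that its RNA was absent. With the study's rule, a log2 fold change above 2 and a limma q value below 0.05, 8 of the 9 members were SMC-enriched, as were 2.66% of the 27414 genes tested, and 1 of the 9, Dcn, was pericyte-enriched with its values taken as listed, as were 3.24%. In all 8 genes every SMC library lay above every pericyte library, which was so for 12.5% of the genes tested. The median log2 fold change was 3.06 over these 8, against −0.02 over all genes tested. Over all 9, with Dcn taken as listed, it was 2.90. Each of the 9 genes separated the groups completely, Dcn only with its values taken as listed. Each gave a two-sided exact permutation p of 0.0286, the smallest that 4 against 4 libraries can give. In bulk libraries, a change in the share of cells of a type and a change in RNA per cell cannot be told apart.

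**Figure D2:**
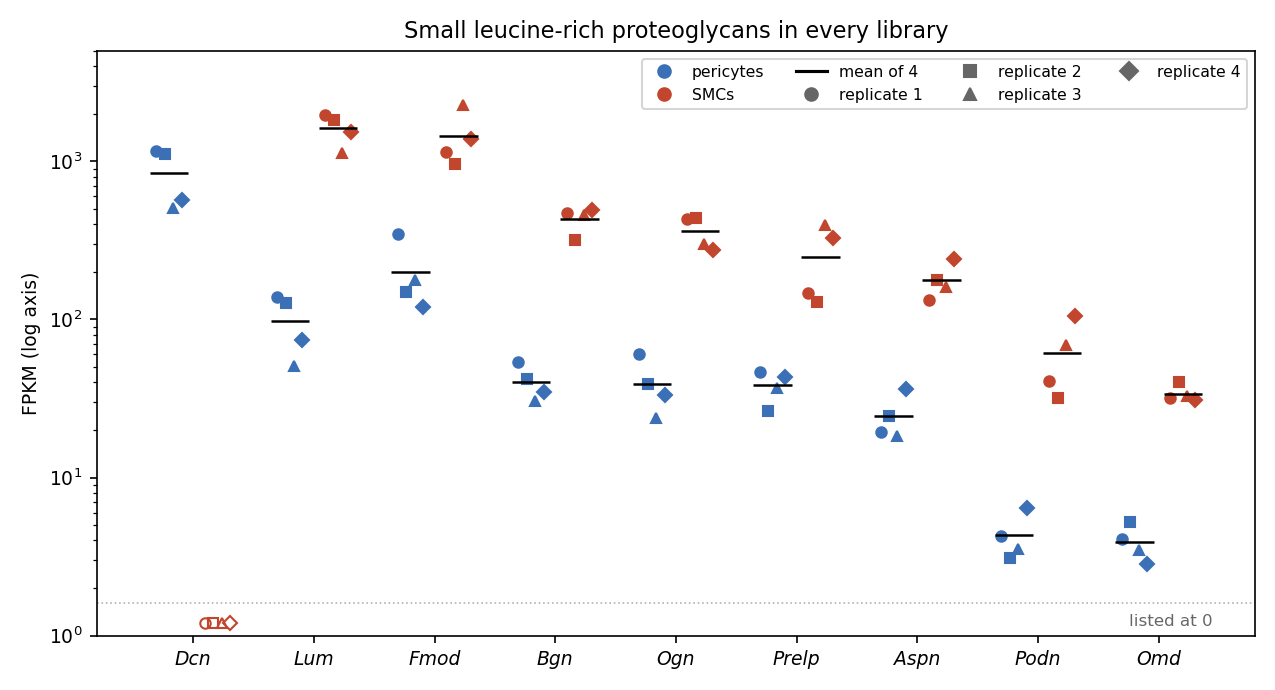
FPKM of the 9 members (x axis) in every library on a log axis (y axis), with pericytes in blue, SMCs in red, marker shapes for the replicate number and bars for the mean of 4. Open symbols under the dotted line are the SMC values of Dcn, listed at 0, and in the other 8 genes no pericyte symbol reaches the lowest SMC symbol.

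Decorin, the class I member with a single chondroitin or dermatan sulfate chain, was the most abundant member in pericytes. It was listed at 1165, 1115, 509 and 571 FPKM in pericyte replicates 1 to 4 (840 ± 348, SD, n = 4) and held rank 162 among 37979 genes by mean level. In SMC replicates 1 to 4 it was listed at 0, 0, 0 and 0. No fold change is given against such values, because Ubb, a ubiquitin gene that every cell uses, was likewise listed at 0 in all 8 libraries, so that a listed 0 need not be a measured absence of RNA. Taken as listed, the values gave a limma q of 4.9e-06. Only Dcn and Gsn, which encodes the actin-severing protein gelsolin, were listed at 0 in every SMC library with at least 100 FPKM in every pericyte library, and Cd74, H2-Aa and H2-Ab1, genes of antigen presentation, showed the reverse. Dcn made up 59.6 to 72.8% of the summed FPKM of the 9 members in pericyte libraries, and was 7.75 to 9.97 times the level of Lum, its neighbour on the chromosome, in each of them.

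Biglycan, the closest relative of decorin, was higher in SMCs. It was listed at 54.1, 42.1, 30.6 and 34.9 FPKM in pericytes (40.4 ± 10.3, SD, n = 4) and at 468, 320, 455 and 491 FPKM in SMCs (433 ± 76.7, SD, n = 4). The groups did not overlap, and the lowest SMC library was 5.92 times the highest pericyte library. The log2 fold change was 3.40 (SE 0.21) with a limma q of 6.4e-05, and the ratio of mean FPKM was 10.7. Biglycan carries chondroitin or dermatan sulfate chains and, when shed from the matrix, can signal through Toll-like receptors.

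Asporin, the class I member named for its run of aspartates, had a lower mean level than biglycan in both groups, although their pericyte ranges overlap. Its pericyte values were 19.5, 24.4, 18.4 and 36.4 FPKM (24.7 ± 8.23, SD, n = 4) and its SMC values 133, 178, 160 and 242 FPKM (178 ± 46.1, SD, n = 4). Replicate 4 was the highest of both groups, and the lowest SMC value was still 3.66 times the highest pericyte value. On the log2 scale the difference was 2.82 (SE 0.26, limma q = 3.5e-04). Asporin binds collagen and can promote its mineralisation.

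Lumican, a keratan sulfate proteoglycan that keeps fibrils thin in cornea and skin, showed the largest fold change of the members. It was listed at 139, 127, 51.1 and 73.7 FPKM in pericytes (97.9 ± 42.3, SD, n = 4) and at 1971, 1823, 1131 and 1528 FPKM in SMCs (1613 ± 371, SD, n = 4). Replicate 3 was the lowest library of both groups, and the lowest SMC library was 8.11 times the highest pericyte library. Lum had a log2 fold change of 4.11 (SE 0.35, limma q = 2.6e-04), a ratio of 16.5 in mean FPKM. By mean level Lum held rank 1344 in pericytes and rank 44 in SMCs.

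Fibromodulin, which binds collagen I beside lumican and is abundant in tendon, was, after Lum, the most abundant member in SMCs. Its pericyte values were 348, 149, 177 and 119 FPKM (198 ± 103, SD, n = 4) and its SMC values 1152, 967, 2277 and 1375 FPKM (1443 ± 581, SD, n = 4). Pericyte replicate 1 and SMC replicate 3 stood highest, and the lowest SMC library was 2.78 times the highest pericyte library, the smallest such gap of the 8 genes. The log2 fold change was 2.90 (SE 0.39, limma q = 0.00193). Read by replicate number, the SMC to pericyte ratio of Fmod ran from 3.31 in replicate 1 to 12.9 in replicate 3.

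PRELP, a basic member that links collagen to heparan sulfate of basement membranes, had the smallest fold change. It was listed at 46.4, 26.3, 36.9 and 43.2 FPKM in pericytes (38.2 ± 8.88, SD, n = 4) and at 147, 129, 397 and 326 FPKM in SMCs (250 ± 132, SD, n = 4). SMC replicates 1 and 2 were low and replicates 3 and 4 high, a spread of 53.1% of the mean, but none came down to the pericyte values. Its log2 fold change was 2.54 (SE 0.40, limma q = 0.00407).

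Osteomodulin, known best from bone and dentin, was the scarcest member among those above 0. It was listed at 4.11, 5.23, 3.46 and 2.85 FPKM in pericytes (3.91 ± 1.02, SD, n = 4) and at 31.7, 40.0, 32.6 and 31.0 FPKM in SMCs (33.8 ± 4.14, SD, n = 4). The SMC libraries lay close together, with a coefficient of variation of 12.3%, the lowest of the 8 genes, and the lowest of them was 5.93 times the highest pericyte library. The log2 fold change was 2.84 (SE 0.16, limma q = 4.8e-05), and the ratio of mean FPKM was 8.64, larger because adding 1 to each value shrinks the fold change of a gene with low FPKM.

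Osteoglycin, also called mimecan, is a class III member that takes part in collagen fibril assembly. Its pericyte values were 60.7, 39.1, 23.8 and 33.2 FPKM (39.2 ± 15.7, SD, n = 4) and its SMC values 434, 435, 299 and 273 FPKM (360 ± 86.4, SD, n = 4). Replicates 1 and 2 were higher than replicates 3 and 4 in both groups, and the groups were 4.50 times apart at their nearest. The log2 fold change was 3.22 (SE 0.30, limma q = 3.8e-04).

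Podocan, a class V member that binds collagen I and is known to restrain SMC growth in the arterial wall, was scarce in pericytes. It was listed at 4.26, 3.10, 3.54 and 6.40 FPKM in pericytes (4.32 ± 1.46, SD, n = 4) and at 40.7, 31.8, 68.8 and 105 FPKM in SMCs (61.6 ± 32.9, SD, n = 4). Replicate 4 was highest and replicate 2 lowest in both groups, and the nearest libraries of the groups differed by 4.97 times. The log2 fold change was 3.44 (SE 0.39, limma q = 8.8e-04), second to Lum, and the ratio of mean FPKM was 14.2.

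Under a stricter test of whether the log2 fold change exceeds 2 (limma treat), Bgn, Lum and Omd kept the call and Fmod (q = 0.903), Ogn (q = 0.124), Prelp (q = 1.0), Aspn (q = 0.314) and Podn (q = 0.175) lost it, so that 3 rather than 8 members were SMC-enriched. Over all 27414 genes tested, the same test left 32 SMC-enriched, against 728 under the study's rule.

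**Figure D3:**
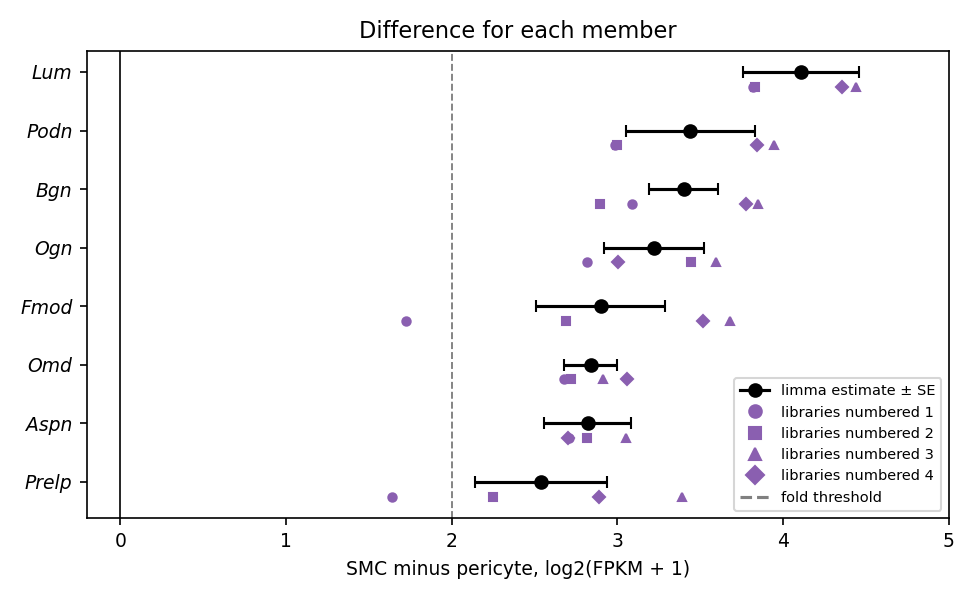
SMC minus pericyte difference in log2(FPKM + 1) (x axis) for the 8 members above 0 in all libraries (y axis), as the limma estimate ± SE in black and, in purple, the difference between libraries that carry the same number. All points lie above 0, Lum is largest at 4.11, Prelp smallest at 2.54, and in Fmod and Prelp the libraries numbered 1 lie below the dashed threshold of 2.

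The order of levels differed between the groups mainly at the top. In pericytes Dcn stood above Fmod without overlap, and Fmod stood above Lum in 4 of 4 libraries although their ranges overlap. In SMCs Lum stood above Fmod in 3 of 4 libraries, SMC replicate 3 being the exception, and neither differs from the other beyond their spread. Below them the order was the same in both groups, with Bgn, Ogn, Prelp and Aspn each overlapping its neighbour in range. A clear step followed from Aspn to Podn, from 24.7 to 4.32 FPKM in pericytes and from 178 to 61.6 FPKM in SMCs, with no overlap in either group. Podn and Omd overlapped in both.

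Without Dcn, the 8 members summed to 677, 416, 345 and 350 FPKM in pericytes and to 4377, 3924, 4821 and 4369 FPKM in SMCs. These sums are 0.0349 to 0.0980% of the FPKM of a pericyte library and 0.593 to 0.689% of that of an SMC library, so the SMC sums lay close together while pericyte replicate 1 stood above the other three. Lum made up 20.6, 30.6, 14.8 and 21.1% of the sum in pericytes and 45, 46.4, 23.5 and 35.0% in SMCs, means of 21.8 ± 6.53% and 37.5 ± 10.7% (SD, n = 4). Fmod made up 51.4, 35.7, 51.3 and 34.0% in pericytes and 26.3, 24.7, 47.2 and 31.5% in SMCs, means of 43.1 ± 9.55% and 32.4 ± 10.3% (SD, n = 4). The ranges of both genes overlap between the groups, as do those of the other 6. The share of Bgn was 8.0 to 10.1% in pericytes and 8.17 to 11.2% in SMCs. With Dcn in the sum, the mean shares in pericytes were 7.47% for Lum, 15.6% for Fmod and 3.27% for Bgn, and those in SMCs, where Dcn was listed at 0, were unchanged.

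**Figure D4:**
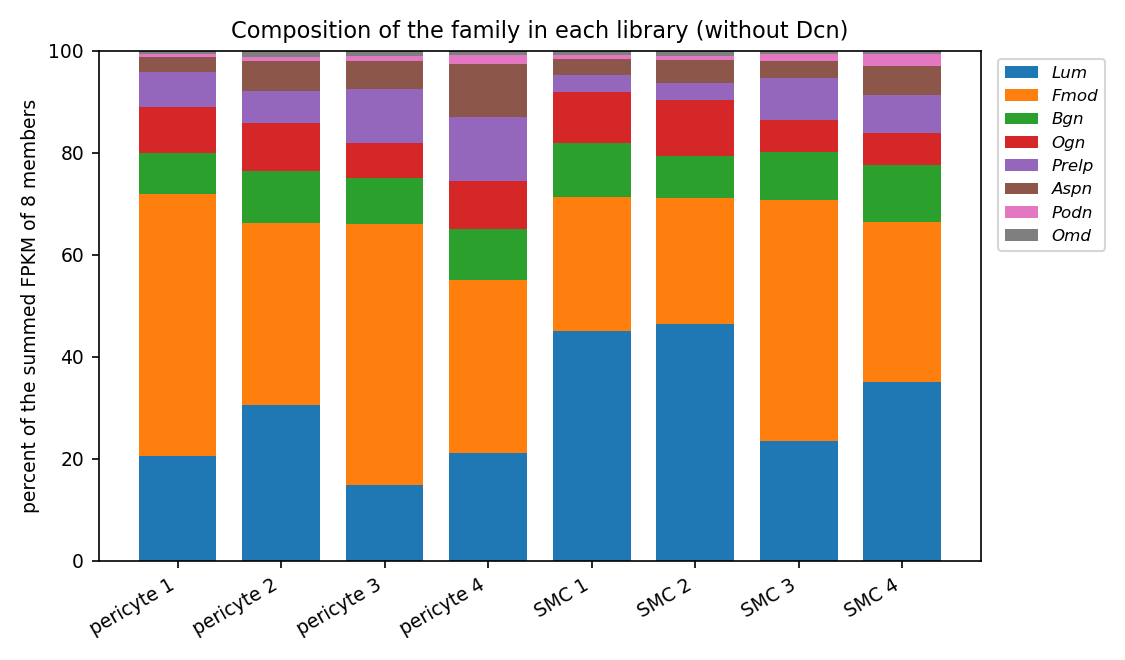
Percent of the summed FPKM of 8 members (y axis, Dcn left out) that each member makes up in each library (x axis). Lum and Fmod together form the lower part of every bar, Fmod the larger of them in the 4 pericyte libraries and in SMC replicate 3, and Lum the larger in the other SMC libraries.

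Some of the spread within a group followed the replicate number. The share of Lum was lowest in replicate 3 of both groups, and the shares of Aspn and Podn were highest in replicate 4 of both. The ratio of Fmod to Prelp was 7.51, 5.66, 4.79 and 2.75 in pericytes and 7.86, 7.49, 5.74 and 4.22 in SMCs, so replicate 1 was highest and replicate 4 lowest in each group. These are descriptions over 4 libraries a group, and the labels do not say that a number marks shared animals or days. Across the 8 libraries, each member's log2(FPKM + 1) had a Pearson r of 0.931 (Prelp) to 0.996 (Bgn) with the mean of the other members, a measure that mostly reflects the gap between the groups.

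The genes outside the family with the pattern most like the mean of the 8 members, by Pearson r over the 8 libraries, were Col5a2 (0.999), Adamtsl3 (0.998), Agmo (0.997), Rin2 (0.996) and Fmo1 (0.996). Col5a2 encodes a chain of collagen V, which sets the diameter of collagen fibrils, and was listed at 15.2, 11.3, 8.86 and 10.6 FPKM in pericytes and at 72.5, 71.0, 90.2 and 101 FPKM in SMCs. Adamtsl3 encodes a secreted ADAMTS-like protein of the matrix and was at 0.593 ± 0.267 FPKM in pericytes and 6.57 ± 0.605 FPKM in SMCs (SD, n = 4). Agmo, an enzyme that cleaves ether lipids, was at 2.55 ± 0.404 and 33.0 ± 4.42 FPKM, and Fmo1, a flavin monooxygenase, at 13.5 ± 2.33 and 116 ± 10.5 FPKM (SD, n = 4). Rin2, a regulator of Rab5 in endocytosis, was at 4.70 ± 0.615 and 25.6 ± 3.58 FPKM (SD, n = 4). They were picked for this likeness, so their difference between the groups is a description.

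Markers of fibroblasts and tendon cells moved with the 8 members. All 9 fibroblast markers were higher in SMCs at a limma q below 0.05, as were 11.2% of all genes tested, and their summed FPKM was 356 to 807 in pericytes and 2892 to 4920 in SMCs. The fibroblast receptor Pdgfra was listed at 4.26, 1.19, 1.55 and 3.41 FPKM in pericytes and at 37.4, 39.8, 36.1 and 46.8 FPKM in SMCs, without overlap. Of 6 tendon cell markers 5 were higher in SMCs, with sums of 105 to 426 FPKM in pericytes and 1427 to 3001 in SMCs. Tnmd, the tendon membrane protein tenomodulin, was listed at 157, 179, 31.0 and 21.9 FPKM in pericytes and at 1315, 1176, 516 and 383 FPKM in SMCs, high in replicates 1 and 2 of both groups. The sum of the 8 members was 0.516 to 1.26 times that of the fibroblast markers in pericytes and 0.890 to 1.67 times in SMCs, and 1.19 to 3.32 and 1.46 to 3.06 times that of the tendon markers, ranges that overlap although both sums differ several-fold between the groups. No fibroblast or tendon marker was at 0 in a library. Their part in the difference of the proteoglycans was not tested.

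Other markers were counted at a limma q below 0.05, at which 11.2% of all genes tested were higher in SMCs. Of 6 endothelial markers 4 were higher in SMCs (sums of 48.6 to 102 FPKM in pericytes and 217 to 751 in SMCs), of 7 cartilage and bone markers 3 were (37 to 150 and 131 to 619), of 6 macrophage markers 3 were (761 to 1750 and 906 to 1503), and of 7 mural markers 1, Rgs5, was. By limma, 0 of 7 contractile genes passed, at a median log2 fold change of 1.34, as did 0 of 5 satellite cell markers (19.2 to 160 FPKM in pericytes and 182 to 498 in SMCs) and 0 of 5 Schwann cell markers (103 to 657 and 108 to 344). At an unadjusted limma p below 0.05, 3 contractile genes, 1 satellite cell marker and 1 Schwann cell marker were higher in SMCs. So were 6 endothelial, 4 cartilage and bone, 4 mural, 3 macrophage and 2 muscle fibre markers. The share of all genes at this unadjusted threshold was not computed, so these counts cannot be set against the 11.2%. Higher in pericytes at q below 0.05 were 6 of 6 T cell markers, 6 of 6 B cell markers and 1 of 6 muscle fibre markers, Mylpf, as were 10.6% of all genes tested. The pericyte libraries thus held high levels of lymphocyte transcripts, beside which Dcn was high, and the part of these cells in its level was not tested.

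**Figure D5:**
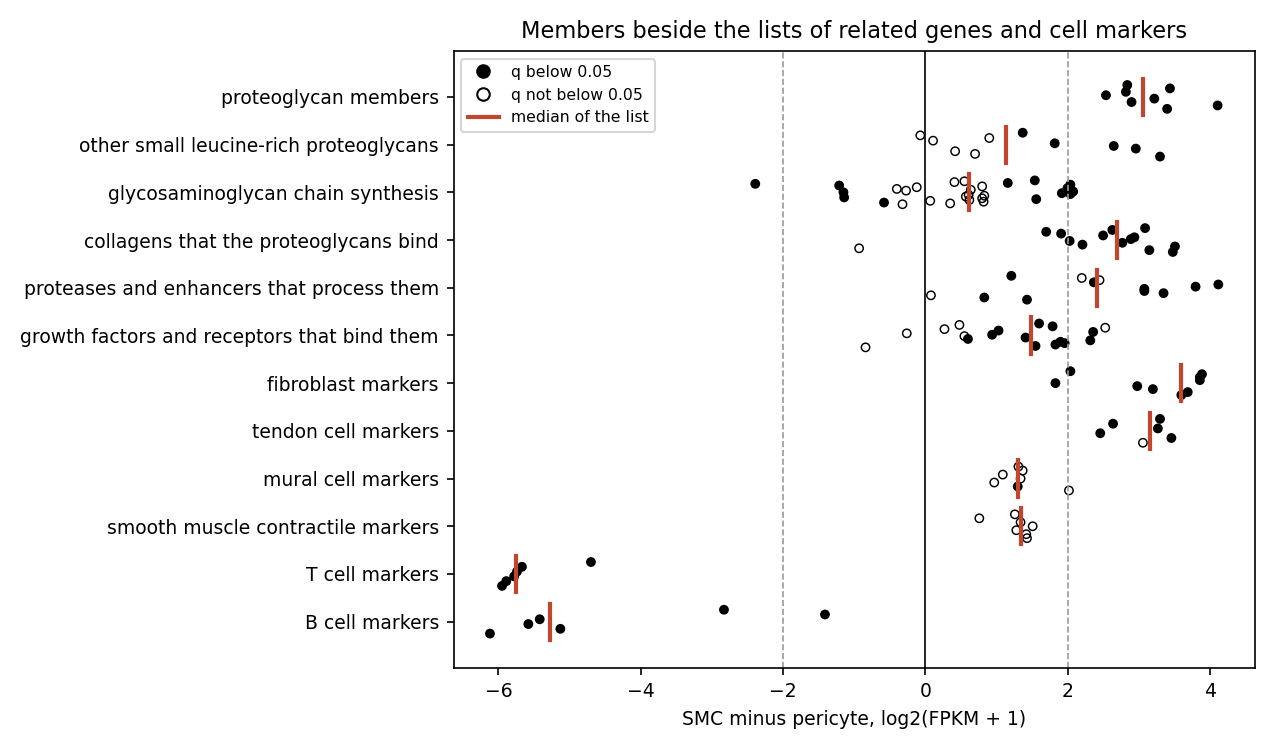
SMC minus pericyte difference in log2(FPKM + 1) (x axis) of each gene in the lists of related genes and cell markers (y axis), filled where the limma q is below 0.05, with red bars at each list's median and dashed lines at the fold threshold of 2. Dcn is left out of the top row, whose 8 genes lie between 2.54 and 4.11, beside collagens around a median of 2.70, fibroblast markers around 3.60 and T cell markers around −5.76.

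The rest of the family was mixed. Of 10 other small leucine-rich proteoglycans, 5 were higher in SMCs at a limma q below 0.05, Kera, Ecm2, Chad, Nepn and Chadl, and 5 did not pass, beside 11.2% of all genes tested. The 3 SMC-enriched genes, Kera, Ecm2 and Chad (2.66% of all genes), lost that call under limma treat. Keratocan (Kera), a keratan sulfate proteoglycan of cornea and tendon and the neighbour of Lum, was listed at 111, 82.6, 25.9 and 13.7 FPKM in pericytes and at 762, 662, 356 and 192 FPKM in SMCs. It was highest in replicates 1 and 2 of both groups, as was Tnmd, and its groups did not overlap. Its log2 fold change was 3.30 (SE 0.75, limma q = 0.0189), and the call was lost without pericyte replicate 3, SMC replicate 1 or SMC replicate 2, which left 2 of the 10 genes enriched rather than 3. Ecm2, a relative of decorin in the chromosome 13 cluster, was listed at 10.6, 8.66, 4.02 and 9.09 FPKM in pericytes and at 71.0, 78.8, 57.7 and 61.1 FPKM in SMCs, a log2 fold change of 2.96 (SE 0.27, limma q = 3.2e-04). Chondroadherin (Chad), a cartilage protein that binds collagen and integrin, was listed at 97.4, 79.5, 63.2 and 31.2 FPKM in pericytes and at 541, 331, 426 and 327 FPKM in SMCs, a log2 fold change of 2.65 (SE 0.36, limma q = 0.00200). Both genes separated the groups completely. Of the members' neighbours, Epyc stayed between 0.130 and 2.66 FPKM and Optc between 0 and 1.12 FPKM over all 8 libraries, and neither passed (limma q = 0.107 and q = 0.344).

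Enzymes that build the chains of these proteoglycans were mixed. Of 29 genes, 8 were higher in SMCs, 5 were higher in pericytes and 16 did not pass, beside 11.2% and 10.6% of all genes tested, with a median log2 fold change of 0.61. SMC-enriched were 4 of the 29, beside 2.66% of all genes tested. They were Dse and Chst14, which make dermatan sulfate, and Chst7 and B4galt4, which act on chondroitin and keratan sulfate. Dse, which turns glucuronate into iduronate, was listed at 7.55, 1.35, 5.81 and 6.70 FPKM in pericytes and at 24.7, 30.7, 16.8 and 19.8 FPKM in SMCs (log2 fold change 2.04, SE 0.43, limma q = 0.0135). Chst14, the dermatan 4-O-sulfotransferase, was listed at 2.71, 5.22, 0.391 and 2.92 FPKM in pericytes and at 12.7, 9.91, 14.5 and 12.9 FPKM in SMCs (log2 fold change 2.00, SE 0.43, limma q = 0.0145). Neither gene overlapped between the groups. Chst7 had a log2 fold change of 2.08 (SE 0.47, limma q = 0.0177) and B4galt4 of 2.04 (SE 0.23, limma q = 8.5e-04). All 4 lie close to the threshold of 2, and 0 were left under limma treat. The number of enriched genes in the list fell to 1 without pericyte replicate 3 and to 2 without SMC replicate 1, 3 or 4. With a replicate block it also fell to 2, as Chst7 and Dse lost the call and did not pass at q below 0.05. Higher in pericytes were B3gnt7, B4galt1, Chst3, Chsy1 and B4galt7. Only B3gnt7, which extends keratan sulfate, was enriched, though not under limma treat. That is 1 of 29 genes, close to the 3.24% of all genes tested that were pericyte-enriched. B3gnt7 was listed at 6.08, 3.71, 7.63 and 6.71 FPKM in pericytes against 0.207, 0.0161, 1.2 and 0.0971 FPKM in SMCs (log2 fold change −2.39, SE 0.29, limma q = 0.00126). Leaving out pericyte replicate 1, 2 or 3 or any SMC replicate took B4galt7 and Chsy1 below the threshold and left 3 genes higher in pericytes.

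Of 14 genes for collagen chains that these proteoglycans bind, 13 were higher in SMCs at a limma q below 0.05 (11.2% of all genes tested) and 11 were SMC-enriched (2.66%), of which 1 was left under limma treat, with a median log2 fold change of 2.70, while Col2a1 of cartilage had a log2 fold change of −0.93 and did not pass. Col1a1, the main chain of collagen I, was listed at 147, 39.3, 135 and 60.0 FPKM in pericytes and at 525, 580, 1702 and 1478 FPKM in SMCs (log2 fold change 3.48, SE 0.58, limma q = 0.00502). Its partner Col1a2 was listed at 161, 71.5, 128 and 69.3 FPKM in pericytes and at 578, 582, 1468 and 1314 FPKM in SMCs (log2 fold change 3.15, SE 0.43, limma q = 0.00216). SMC replicates 3 and 4 were the high libraries of both chains, as they were for Prelp and Podn and not for Lum or Ogn. Col3a1 of pliable tissues was listed at 130, 63.1, 85.1 and 108 FPKM in pericytes and at 742, 718, 1382 and 1794 FPKM in SMCs (log2 fold change 3.51, SE 0.36, limma q = 6.2e-04). Col14a1, whose product coats fibrils and binds decorin, was listed at 3.05, 1.55, 2.40 and 2.18 FPKM in pericytes and at 25.1, 21.5, 25.8 and 36.4 FPKM in SMCs (log2 fold change 3.09, SE 0.19, limma q = 6.9e-05). The sum of the 8 members was 0.633 to 1.58 times that of the collagen list in pericytes and 0.782 to 1.83 times in SMCs, highest in replicates 1 and 2 of both groups.

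Of 12 proteases and enhancers that act on the proteoglycans or on procollagen, 9 were higher in SMCs at q below 0.05 (11.2% of all genes tested), 6 of them enriched (2.66%), of which 1 was left under limma treat, and Adamts1, Adamts4 and Tll2 did not pass. For Adamts1 and Adamts4, whose values spread widely within each group, this changed under some alternative settings. Mmp13, a collagenase that also cuts fibromodulin, was listed at 0.427, 2.04, 4.29 and 0.0947 FPKM in pericytes and at 22.3, 99.7, 34.6 and 26.2 FPKM in SMCs (log2 fold change 4.12, SE 0.64, limma q = 0.00371). Mmp3, stromelysin 1, was listed at 6.31, 6.39, 3.51 and 4.36 FPKM in pericytes and at 82.4, 57.6, 78.2 and 124 FPKM in SMCs (log2 fold change 3.80, SE 0.26, limma q = 1.1e-04). The groups lay apart in both genes. Pcolce, which speeds the trimming of procollagen, was listed at 89.8, 70.4, 25 and 27.5 FPKM in pericytes and at 718, 450, 453 and 356 FPKM in SMCs (log2 fold change 3.35, SE 0.46, limma q = 0.00215), and its relative Pcolce2 had a log2 fold change of 3.08 (SE 0.46, limma q = 0.00319).

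Of 18 growth factors and receptors known to bind a member, 12 were higher in SMCs at limma q below 0.05 (11.2% of all genes). The other 6 did not pass. Of these, 1, Tgfb1, was higher in pericytes at an unadjusted limma p below 0.05, for which no share over all genes was computed. The median log2 fold change of the list was 1.48. Egfr, the epidermal growth factor receptor that decorin protein binds, was listed at 5.95, 2.92, 4.76 and 6.5 FPKM in pericytes and at 26.0, 24.4, 31.3 and 36.3 FPKM in SMCs (log2 fold change 2.36, SE 0.23, limma q = 4.3e-04). Wisp1, a matricellular growth regulator, was listed at 10.8, 4.37, 3.23 and 4.36 FPKM in pericytes and at 50.3, 39.4, 18.0 and 21.6 FPKM in SMCs (log2 fold change 2.32, SE 0.43, limma q = 0.00782). These were the only 2 genes of the list that were enriched (2.66% of all genes), 0 under limma treat, both without overlap, and 5 were without pericyte replicate 4 or without SMC replicate 1. The fibroblast, tendon and, despite the CD31 gate, endothelial markers above moved with the collagens, proteases and receptors in the same libraries. Their part was not tested.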

How the data were processed

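RNA of 4 pericyte and 4 SMC libraries was amplified for ultra-low input and built into Nextera XT libraries. With Bowtie2 and TopHat, the authors aligned reads that FastQC had checked to NCBI Build 37 with an Ensembl annotation, and deposited FPKM per gene and library. The program that computed FPKM and the use of strand are not given in the sources used here. Depth is unknown, and values under 0.3 FPKM gave relative depths of 0.865 to 1.07, so the precision rests on 4 libraries a group.

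Values were tested as log2(FPKM + 1) with limma 3.58.1 in R 4.3.3 (lmFit, eBayes) without covariates, with Benjamini-Hochberg adjustment (q value) over the 27414 genes above 0 in at least 1 library, and enriched genes had a log2 fold change above 2 with q below 0.05. The fit was tested on simulated data. Single members also had two-sided exact permutation tests over 70 divisions of the libraries. Python 3.11.15, numpy 2.4.6, pandas 2.3.3, scipy 1.17.1 and matplotlib 3.10.9 were used for the rest.

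The members and lists were chosen with earlier results of these data known. Named were all members, in each list of related genes up to 4 enriched genes per direction with the largest fold change, chromosomal neighbours, and the 5 genes most correlated with the mean of the 8 members among those with a mean of at least 1 FPKM. Among the proteases, Mmp2 and Pcolce2 had the same log2 fold change of 3.08, and only Pcolce2 was named. Other list genes, the markers named with values and the genes listed at 0 beside Dcn were named after their values were seen. Kera, Kdr and Col2a1 each stand in 2 lists. Positions come from GENCODE M1, in which the 9 members have the same symbols, and promoters from RefSeq. Alternatives were a pseudocount of 0.1, a filter of 1 FPKM in 4 libraries, no filter, TPM, quantile and median-ratio scaling, limma treat, an intensity trend, a replicate block, a covariate for replicates 1 and 2 against 3 and 4, and each library left out.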

Additional observations from a re-analysis of the deposited data

Results flagged for a closer look

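The share of Omd in the summed FPKM of the 8 members was 1.02% in SMC replicate 2 and 0.724, 0.676 and 0.710% in SMC replicates 1, 3 and 4, a gap of 0.860 of the group's range, above Dixon's 95% critical value for 4 samples. Chance flags about 1 in 20 groups, and 80 groups were examined, of which 1 was beyond the limit.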

How the results depend on the processing

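The counts of 8 SMC-enriched members and 1 pericyte-enriched member were kept under every alternative run except limma treat, under which 3 members were SMC-enriched. The median log2 fold change of all members, with Dcn taken as listed, stayed between 2.86 and 3.21. Without Dcn it stayed between 2.95 and 3.33. Of 144 tests of a member under alternatives, 139 kept the call, 5 lost it, all under treat, and 0 turned direction. Read depth is not given by FPKM, so counting error could not be computed.

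Under limma treat the SMC-enriched genes numbered 0 of the other family members, 0 of the chain synthesis genes, 1 of the collagens, 1 of the proteases and 0 of the growth factors and receptors, and the pericyte-enriched chain synthesis genes 0. With a pseudocount of 0.1 there were 5 SMC-enriched other family members, 7 SMC-enriched and 2 pericyte-enriched chain synthesis genes, and 4 SMC-enriched growth factors and receptors, which numbered 5 with TPM scaling and 4 with quantile scaling. With each library left out in turn, SMC-enriched counts ran from 2 to 4 (other family members), 1 to 5 (chain synthesis) and 2 to 5 (growth factors and receptors), and at q below 0.05 chain synthesis genes higher in pericytes ran from 3 to 6 and growth factors and receptors higher in pericytes from 0 to 1. Without a filter, and with TPM or quantile scaling, 3 chain synthesis genes were higher in pericytes. Over all genes, 728 SMC-enriched and 888 pericyte-enriched became 1019 and 822 with TPM scaling, 1421 and 1328 with a pseudocount of 0.1, and 32 and 336 under treat.

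The libraries share replicate numbers, and same-numbered libraries deviated together with correlations of 0.0794 to 0.474 (mean 0.327) over 13612 genes. By this measure, 2 of 4 pericyte and 3 of 4 SMC libraries correlated best with their own number. The labels do not say that a number marks shared animals or days, and the main fit did not take the numbers as pairs. With a replicate block the members' calls (8 and 1) and their median log2 fold change of 2.90 did not change, SMC-enriched chain synthesis genes fell from 4 to 2 (Chst7 and Dse were lost, also at q below 0.05), proteases rose from 6 to 8 (Adamts1 and Adamts4 were gained), growth factors and receptors rose from 2 to 3 (Kdr was gained), and 739 genes were SMC-enriched and 881 pericyte-enriched over all. With the block, or with replicates 1 and 2 against 3 and 4 as a covariate, 1 growth factor, Tgfb1, was higher in pericytes at q below 0.05, and the covariate gained Adamts1, Adamts4 and Kdr too. The filter of 1 FPKM in 4 libraries gained Adamts1 and Kdr as SMC-enriched. Of 94 shares of the sum under alternatives, 76 moved by less than 1 SD. The other 18 moved by more when Dcn was put into the sum or Lum was left out. Leaving out 1 of 4 libraries cannot move a group's mean share by 1 SD, and Dcn, listed at 0, cannot change an SMC share. The outcome of those cases was fixed in advance, so the 76 do not measure how stable the shares are. At q below 0.05 the block also lost Tll1, Met and P2rx7 and gained Tsku, Chsy3, Fam20b and Ust, all higher in SMCs.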
